A study of Schizosaccharomyces pombe with 22 samples.

Results

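The introns described here are unannotated introns in 5' untranslated regions (5' UTRs) of the fission yeast Schizosaccharomyces pombe. They are the entries of the deposited list of unannotated introns that the authors' own annotation placed in a 5' UTR, 857 of 8113. Each entry pairs a 5' splice site with a branch point seen as a lariat, and the 857 pairs make 780 different splice junctions with 668 different 5' splice sites. The list names 474 host genes. No measured difference between samples entered the choice.

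Lariat sequencing was done on a dbr1 deletion of strain 972h- under 3 conditions (rich media, heat shock and the diauxic shift from glucose to respiration), and polyadenylated RNA-seq on wild type 972h- and the same deletion under those conditions. RNA-seq was also done on strain ED668 and on ED668 lacking upf1, with 2 libraries each, for which the labels give no condition other than growth at 30 °C. The heat shock temperature and duration and the stage of the diauxic shift are not given in the sources used here. Every lariat value comes from cells without dbr1, and nothing says whether libraries came from separate cultures, so p-values measure only the spread between these libraries.

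A spliced intron leaves the cell's pre-mRNA as a lariat, a loop in which the 5' end of the intron is joined to an adenosine called the branch point. Dbr1 is the enzyme that opens this loop, and without it lariats accumulate, including those of introns that are spliced rarely or from unstable RNA. An intron in a 5' UTR alters the leader that ribosomes scan before the start codon, and can add or remove upstream start triplets (ATG) without touching the protein. Upf1 is the helicase of nonsense-mediated decay, which degrades transcripts on which translation stops early, for example after an upstream reading frame.

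The sequences below come from the introns with the most lariat reads (gmh6, deb1, rod1), the one with the most exon-exon reads (cnl2) and the 6 that were called in an RNA-seq test described further on. The 124-base gmh6 intron is added because it shares the branch point of the 99-base one. They were read on the RefSeq genome ASM294v3, on the strand of the intron. For each the first line spans the exon-intron border, with the first 6 intron bases in capitals, and the second runs from before the branch point to the end of the intron, with the 5 branch bases (the branch adenosine is the 4th) and the final AG in capitals.
gmh6 99-base intron, 5' splice site: aaaaagGTACTTtaaatt
gmh6 99-base intron, branch and end: cttatCTAACatcttAG
gmh6 124-base intron, 5' splice site: tttggtGTTAGTaaacga
deb1 113-base intron, 5' splice site: ttgttgGTAAAGtctatg
deb1 113-base intron, branch and end: gaacgCTGACcaaaacaatAG
rod1 84-base intron, 5' splice site: ttcaggGTAGTAcattct
rod1 84-base intron, branch and end: gttgaCTAAAtatttcAG
cnl2 189-base intron, 5' splice site: ctatcaGTAAGTtactgt
cnl2 189-base intron, branch and end: atttaCTAATatctcaaAG
SPAC1F12.04c 53-base intron, 5' splice site: actaaaGTATACgaaaat
SPAC1F12.04c 53-base intron, branch and end: tataaTTGACcaaatcttAG
yhb1 149-base intron, 5' splice site: aatattGTAAGTtaaaag
yhb1 149-base intron, branch and end: tgttgCTAATacaaatcgacAG
prz1 177-base intron, 5' splice site: cctttaGTAAGTccagta
prz1 177-base intron, branch and end: tcataCTAACttcaAG
SPAC630.12 170-base intron, 5' splice site: tagaagGTGAATattact
SPAC630.12 170-base intron, branch and end: ctttaCTAACaaggtttatctAG
atg5 54-base intron, 5' splice site: ctatgtGTATTTaaagcc
atg5 54-base intron, branch and end: ttaatTTAACtaattatAG
ssn6 219-base intron, 5' splice site: cttttcGTAAGTatttca
ssn6 219-base intron, branch and end: cgaatCTAACcattcacaAG

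These introns lie at chrII:4409371-4409469 (gmh6, 99 bases, minus strand), chrII:4409371-4409494 (gmh6, 124 bases, minus), chrI:3536618-3536730 (deb1, plus), chrI:411935-412018 (rod1, plus) and chrI:1588759-1588947 (cnl2, plus). The others lie at chrI:3811663-3811715 (SPAC1F12.04c, minus), chrI:5517867-5518015 (yhb1, plus), chrI:789969-790145 (prz1, minus), chrI:368143-368312 (SPAC630.12, plus), chrII:3433302-3433355 (atg5, minus) and chrII:3862695-3862913 (ssn6, plus). Their letters show how far the sites vary. The cnl2, yhb1, prz1 and ssn6 introns begin with GTAAGT, the most frequent opening among the 857, while the 3 introns with the most lariats each begin with other letters after the GT. Both gmh6 introns end at the same branch point and 3' splice site and differ in the 5' splice site alone.

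All 857 introns began with GT, ended with AG and had an A at the branch point on this genome. The opening GTAAGT was found in 12.8% and GTATGT in 7.58%, against 30.5% and 22.3% of 2772 annotated introns with lariat reads. The branch letters CTAAC were found in 14.1%, CTAAT in 13.5% and TTAAC in 11.2%, whereas 49.4% of the annotated introns had CTAAC. The introns ended in TAG in 41.3%, AAG in 30.7% and CAG in 20.3%, against 71.8%, 10.1% and 18.1% of the annotated introns. In the other 7 types of unannotated intron, CTAAC was found in 9.76% to 15.6%, CTAAT in 13% to 20.3% and TTAAC in 7.40% to 13.3%, and the 5' UTR introns lay within each of these ranges. TTAAT was found in 10.6% of the 5' UTR introns, above the 5.95% to 9.73% of the other types, with no test of that difference. The median length was 104 bases (quartiles 86 and 128, range 31 to 513), and the median distance from branch point to 3' splice site was 13 bases.

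The host gene was found in the RefSeq annotation for 810 of the 857, and all 810 lay on the host's strand. None of the 857 equals an intron of that annotation. By its coding regions, 725 ended upstream of the start codon, 75 spanned it, 9 lay inside the coding region and 1 lay in a gene with no coding region, SPNCRNA.821. For the 725 the median distance from the 3' splice site to the start codon was 179 bases (quartiles 65 and 414), and 253 ended within 100 bases of it. Some end at its edge: the intron of gmf1, an actin regulator, ends 0 bases before the start codon, that of kha1, a potassium and proton antiporter, 2 bases and that of cnl2, a centromere protein, 7 bases before it.

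In 482 introns (59.5%) the 5' splice site lay before the first base of the host's RefSeq transcript. Of these, 254 had their 5' splice site inside a gene of the other strand, 10 inside another gene of the same strand and 218 inside no annotated gene. The lariat protocol keeps no strand, and the strand here comes from the splice sites themselves.

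The 75 introns across the start codon form 68 junctions in 54 hosts. In 16 of these junctions the next ATG of the coding sequence lies in frame, and in 52 it lies out of frame. The deb1 intron, in the gene of a DNA-binding transcription factor also called Rdp1, spans the annotated start codon, and the next ATG lies 117 coding bases further, in frame. The yhb1 intron, in the gene of nitric oxide dioxygenase, also spans the start codon, and its next ATG is out of frame. Together the introns across the start codon held 17.3% of the lariat reads, most of it from deb1.

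Start triplets were counted inside the introns because splicing takes them out of the leader. Of the 857 introns, 559 (65.2%, Wilson 95% interval 62.0 to 68.3) held at least 1 ATG. In the other 7 unannotated types the share ran from 82.6% to 92.0%, and in the annotated introns it was 80.3%. The reverse complement CAT, which has the same AT content, was found in 83.5% of the 5' UTR introns, inside the range of 78.6% to 94.7% of the other types. The total of ATG over CAT was 0.702 in the 5' UTR introns and 0.938 to 1.35 in the other types. These intervals cover counting error only, and entries that share a junction or a host are not independent.

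**Figure D1:**
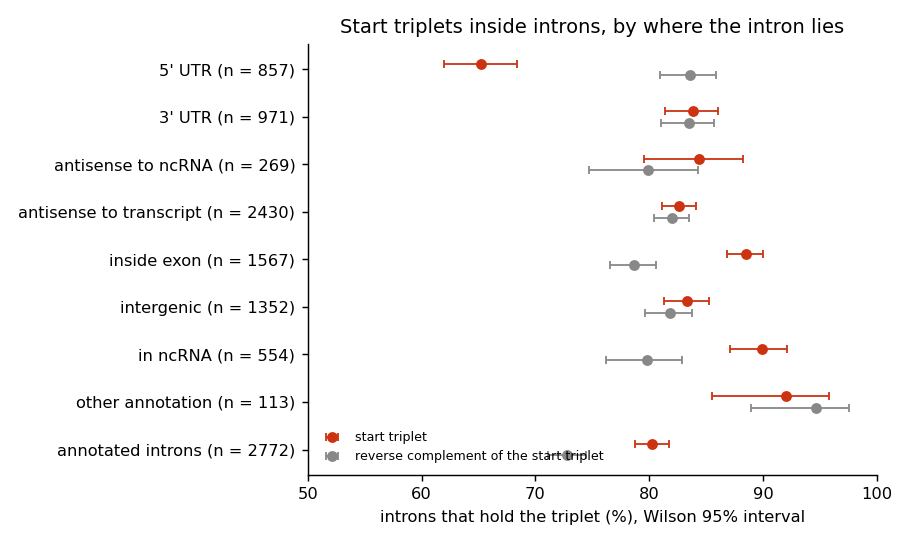
The horizontal axis gives the percentage of introns that hold a start triplet (red) or its reverse complement (grey) with Wilson 95% intervals, and each row is a type of unannotated intron or the annotated introns. The start triplet share of the 5' UTR introns, 65.2%, lies left of every other row, while its grey point, 83.5%, lies among those of the other types.

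The difference was also seen within a narrow range of lengths. Among introns of 76 to 100 bases, 61.4% of 285 5' UTR introns held an ATG (55.6 to 66.9), against 77.9% to 88.9% in the other types. Among the 725 upstream of the start codon the share was 60.7%, and ATG over CAT was 0.644. The exonic bases beside them had fewer ATG than CAT as well. For the 551 junctions that end at least 50 bases before the start codon, ATG over CAT was 0.807 in the 50 bases before the intron, 0.692 inside it and 0.520 in the 50 bases after it. In the 7 other types the same ratio ran from 0.943 to 1.41 before the intron and from 0.839 to 1.39 after it.

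The lariat data were deposited as 1 sum of 4 libraries per condition, from 53284863 aligned reads for rich media, 9467948 for heat shock and 9854589 for diauxic shift. The 857 introns had 23639 lariat reads, 11.7% of those of all unannotated introns. Most were seen rarely: 340 (39.7%) had exactly 1 read and 145 had at least 10. A few carried the signal, since the 3 leading introns held 49.1% and the 10 leading introns 62.9% of all reads. By condition, 537 introns were seen in rich media, 224 under heat shock and 560 under diauxic shift. All 3 conditions showed 134 of them, and 527 appeared in 1 condition alone, where a count of 0 at these depths does not show absence.

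The 99-base intron of gmh6, which encodes an alpha-1,2-galactosyltransferase, had the most lariats, with 2309 reads from rich media, 721 from heat shock and 2831 from diauxic shift. The deb1 intron had 1811, 403 and 1414 reads in the same order. The intron of rod1, which encodes an arrestin, had 1676, 137 and 307 reads. These 3 were thus the strongest in rich media as well, and rod1 alone among them was concentrated there.

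The next introns were weaker. The intron of knh4 had 744 reads, that of pso2, a DNA 5' exonuclease, 530, and that of mss1, a GTPase, 526. The SPAC4H3.01 intron, in a gene for a DNAJ domain protein, is listed with 505 reads in total but 0, 2 and 0 reads in the 3 conditions, so its condition values are incomplete and were left out of the ratios. The 10 strongest also hold the 124-base gmh6 intron (398 reads), an intron with no named host on chromosome I (285) and that of msm1, a methionine tRNA ligase (281).

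**Figure D2:**
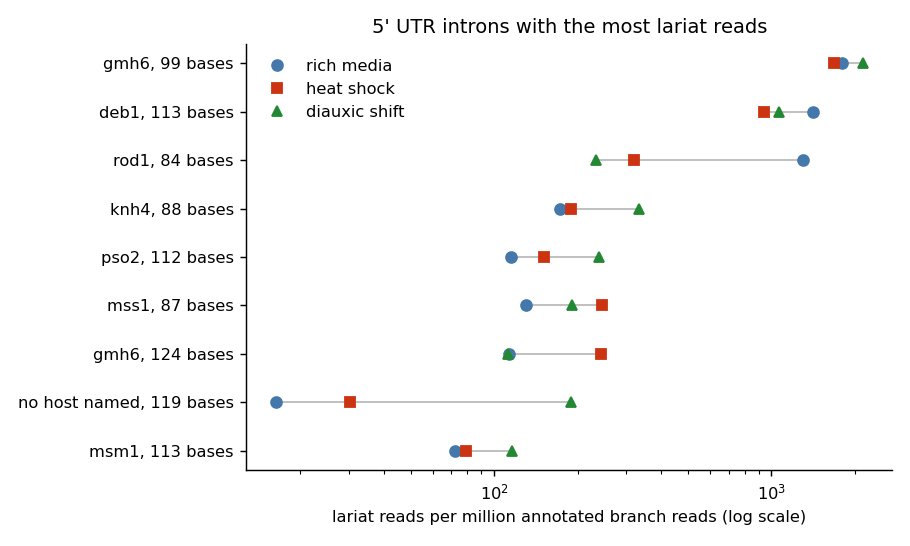
The horizontal log axis gives lariat reads per 1000000 annotated branch reads of the same condition for the 9 leading introns with complete condition counts, and the symbols are rich media, heat shock and diauxic shift. The rod1 intron lies at 1301 in rich media against 319 and 232 in the stresses, and the intron with no named host lies at 16.3, 30.3 and 190 in the same order.

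Many hosts used several sites. A total of 129 of the 668 5' splice sites had more than 1 branch point (up to 5), 70 branch points were joined to more than 1 5' splice site (up to 6), and 118 hosts had more than 1 5' splice site. At gmh6, 6 different 5' splice sites were seen, and the branch point of the 99-base intron also received those of the 124-base intron (398 reads) and a 138-base intron (93 reads). At rod1, 1 5' splice site was joined to branch points 4 bases apart, with 2120 and 259 reads. At caf5, which encodes a spermine transporter of the plasma membrane, 3 5' splice sites and 10 branch points were seen. At ssn6, the gene of a transcriptional corepressor, a 127-base intron had 251 lariat reads and a 219-base intron lay further downstream.

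RNA-seq reads across the spliced exons were found for 205 of the 780 junctions (26.3%, Wilson interval 23.3 to 29.5), and 77 had at least 5 over the 10 libraries. The libraries held 12330328 to 36500561 aligned reads each. Of 3761 exon-exon reads in all, the 10 leading junctions held 62.0%. The share of entries with such reads was 28% for the 5' UTR introns and ran from 22.3% to 37.7% in the other unannotated types. The deposited table marks 17.7% of the 857 as present in an earlier set of junctions, 57.1% of the 240 entries with exon-exon reads and 2.43% of the 617 without.

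Lariat and exon-exon reads ranked the introns differently. Across the 780 junctions, which share libraries and are not replicates, the Spearman correlation was 0.354. Introns of at most 75 bases had 170 exon-exon reads per 100 lariat reads. Those of 76 to 100 bases had 4.04 and those over 150 bases 129. In the classes between 100 and 150 bases the ratios were 9.43 and 28.8 in order of length. A few introns weigh heavily in these sums. SPAC1F12.04c and kha1 held 265 and 138 of the 845 exon-exon reads of the short class. The cnl2 intron held 493 of 1137 over 150 bases. The 99-base gmh6 and 84-base rod1 introns held 5861 and 2120 of 12536 lariat reads of 76 to 100 bases. The ratios are therefore no measure of a typical intron. Of the short class 45.3% of junctions had an exon-exon read (36.1 to 54.8), against 22.8% of 76 to 100 bases (18.1 to 28.3). The SPAC1F12.04c intron of 53 bases, in the short class, had 2 lariat reads and 265 exon-exon reads. The pso2 intron of 112 bases, which lies in neither of these classes, had 530 lariat reads and 0 exon-exon reads.

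**Figure D3:**
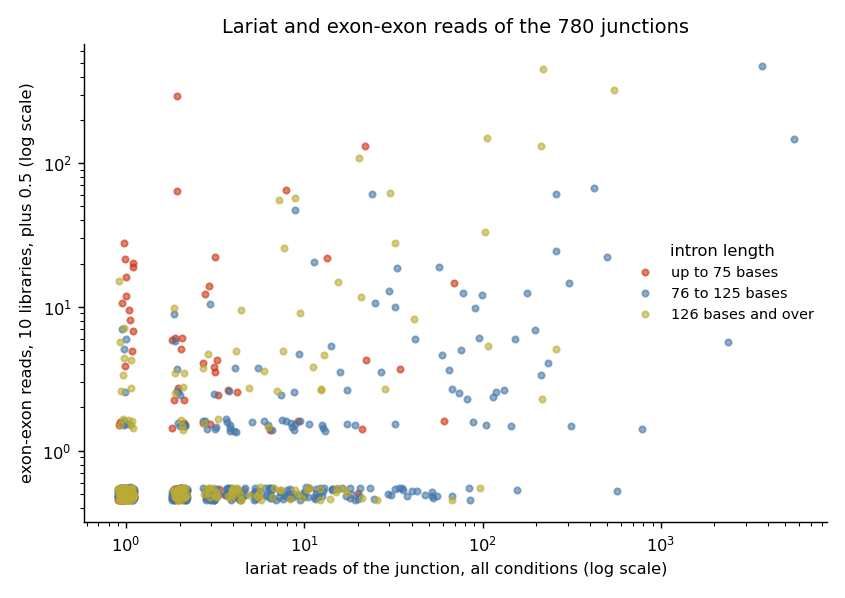
Each point is 1 of the 780 junctions, with its lariat reads over all conditions on the horizontal log axis and its exon-exon reads over the 10 libraries plus 0.5 on the vertical log axis, both slightly jittered. Colours give the length class. The introns of at most 75 bases, which include SPAC1F12.04c with 2 and 265 reads, have none of the highest lariat counts. Their median of 2 lariat reads per entry equals that of 76 to 100 bases.

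The cnl2 intron had the most exon-exon reads, 493. In 972h- it had 31 reads in wild type and 33 in the dbr1 deletion in rich media, 41 and 18 with heat shock and 46 and 19 after the diauxic shift, and in ED668 73 and 70. The authors' fraction of spliced reads, headed PSI, ran from 0.800 to 0.947 in these 8 libraries, so the intron is listed as spliced in most reads of every one of them. The deb1 intron followed with 29 and 14, 23 and 8, and 31 and 9 reads in the same 3 pairs and 89 and 85 in ED668. Its PSI was 0.630 in wild type and 0.289 in the deletion in rich media, 0.597 and 0.356 with heat shock, and 0.380 and 0.247 after the diauxic shift. It was thus lower in the deletion in each pair, with 1 library on each side. Among the 5' UTR junctions compared, PSI was higher in wild type for 17 of 22 in rich media. With heat shock this held for 15 of 25 and after the diauxic shift for 11 of 25. For the other types it held for 114 of 145, 137 of 253 and 72 of 264 in the same order. Among the 10 leading junctions were also those of efm3, a methyltransferase gene, with 14, 13 and 12 reads in wild type and 5, 1 and 5 in the deletion, and of abo1, a histone chaperone gene, with 1 to 4 reads in each 972h- library and 13 to 16 in each ED668 library.

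The gmh6 junction reads came almost all from the ED668 libraries. The 99-base gmh6 junction had 35 and 31 reads in ED668 and 39 and 44 in its upf1 deletion, but 0, 0 and 0 in wild type 972h- and 2, 0 and 0 in the dbr1 deletion. The 124-base junction had 19, 15, 16 and 11 reads in the ED668 libraries and 1 read in all 6 libraries of 972h-. The lariats of the 99-base intron, which come from the 972h- dbr1 deletion, were nevertheless the most abundant of all 857. All 857 introns together had 72.3% of their exon-exon reads in the 4 ED668 libraries, which hold 58.8% of the aligned reads, and all unannotated introns had 73.7% there. The strains differ in background and in their set of libraries, and these cannot be told apart.

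For lariats between conditions, ratios were set on the scale of the reads at annotated branches. They have exact 95% intervals for counting error and no replicates. The 5' UTR introns made up 79.4 reads per 10000 annotated branch reads for rich media, 65.0 for heat shock and 76.5 for diauxic shift. The summed ratio was 0.818 (0.784 to 0.853) for heat shock and 0.963 (0.937 to 0.990) for diauxic shift. Scaling by all aligned lariat reads instead multiplies every ratio by 1.88 for heat shock and 5.55 for diauxic shift, and turns both sums above 1 (1.54 and 5.35), so the direction of the sums depends on the scaling. What follows is relative to annotated introns. An intron entered with at least 50 reads in the higher of the compared conditions. Introns with few reads in the other condition thus entered only through the condition where they are high. Their ratios, intervals and bounds are descriptions and no support for a difference.

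After heat shock, of 25 introns with at least 50 reads in the higher condition, 4 were more than 2-fold higher and 9 more than 2-fold lower than in rich media. Among all 161 unannotated introns of that depth these shares were 16.8% and 40.4%. With all aligned reads as scale the counts were 11 and 5. The 4 were the 127-base ssn6 intron (44 reads in rich media and 86 in heat shock, 5.86-fold, 4.03 to 8.64), the intron of SPAC630.12, a lipid phosphatase gene (43 and 54, 3.77-fold), cnl2 (75 and 69, 2.76-fold) and the 124-base gmh6 intron (146 and 104, 2.14-fold). The 219-base ssn6 intron had 57 and 24 reads, a ratio of 1.26 (0.750 to 2.07), and its interval lies below that of the 127-base intron. The 127-base intron entered only through heat shock, where it is high, so this is a description and no support for a difference between the 2 introns.

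The 2 lowest had no read left in heat shock. The intron of ubp11, a ubiquitin hydrolase, had 68 reads in rich media and 0 in heat shock, at least 7.56-fold lower with a floor of 3 reads in place of 0. That of rog1, a lipase, had 52 and 0, at least 5.78-fold lower. The rod1 intron was lower at both of its branch points, with 1676 and 137 reads (0.245, 0.205 to 0.292) and with 225 and 8 (0.107, 0.0455 to 0.214). The 8 lowest were completed by the 117-base deb1 intron (60 and 4 reads, 0.2), gmf1 (104 and 11, 0.317), the 112-base caf5 intron (169 and 20, 0.355) and rsd1, an RNA-binding protein gene (111 and 16, 0.432). Annotated introns changed with length in the same contrast, with a Spearman correlation of length and ratio of 0.815 over 1314 introns, against 0.546 over the 25. Set against annotated introns of like length, 4 of the 25 were above 2-fold and 8 below. Of the 4 introns named as more than 2-fold higher, only the 127-base ssn6 intron stayed so, at 1.07 on the log2 scale. SPAC630.12 was at 0.33, cnl2 at 0.05 and the 124-base gmh6 intron at -0.20. Of the 8 lowest, caf5 and rsd1 were within 2-fold of such introns, at -0.95 and -0.53. The mot2 intron (93 and 22 reads, ratio 0.710) was 1.09 above them. The mss1 intron (168 and 105 reads, 1.88-fold) and the intron of nas2, a proteasome assembly gene (85 and 54, 1.91-fold), were 1.56 and 1.76 above such introns on the log2 scale, while the 99-base gmh6 intron was at 0.10.

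After the diauxic shift, 12 of 37 introns were more than 2-fold higher and 10 more than 2-fold lower, beside 40.1% and 26.2% of 252 unannotated introns. With all aligned reads as scale the counts were 28 and 0. The largest ratio was that of scd2, the scaffold of the Cdc42 GTPase complex, with 1 read in rich media and 51 in diauxic shift (49.7-fold, 8.52 to 1999). It was followed by pep12, a SNARE (5 and 61 reads, 11.9-fold, 4.82 to 37.9), and by the intron with no named host (21 and 251, 11.6-fold, 7.45 to 19.1). Next came ppk18, a protein kinase, with 10 and 78 reads (7.59-fold) and rad3, the ATR checkpoint kinase, with 8 and 56 (6.81-fold). The 8 highest were completed by akr1, a palmitoyltransferase (24 and 163, 6.61-fold), pcs2, named as a phytochelatin synthetase (14 and 70, 4.87-fold), and pre6, a proteasome subunit (32 and 110, 3.35-fold).

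Introns of rog1, rod1 and ubp11 were again among the lowest after the diauxic shift. The rog1 intron had 52 and 6 reads (0.112), ubp11 68 and 9 (0.129), and rod1 1676 and 307 at its stronger branch point (0.178, 0.157 to 0.202) and 225 and 26 at the other (0.113). The 8 lowest were completed by SPAC18G6.12c, an uncharacterized protein gene (72 and 10, 0.135), wtf15 (158 and 44, 0.271), mot2, a subunit of the CCR4-Not complex (93 and 28, 0.293), and the 219-base ssn6 intron (57 and 20, 0.342). The heat shock and diauxic ratios share the rich media reads. Annotated introns changed with length in the diauxic contrast too, with a Spearman correlation of 0.819 over 1355 introns. Against annotated introns of like length, 13 of the 37 were above 2-fold and 9 below. Of the 8 highest, pre6 was within 2-fold of such introns, at 0.82 on the log2 scale. The rest of the 8 lay from 1.14 (pcs2) to 4.32 (pep12) above them. Of the 8 lowest, rog1 was 1.16 and mot2 1.36 above such introns on the log2 scale. The others were below them: wtf15 at -0.22, rod1 at -0.84 (stronger branch point) and -1.48, ubp11 at -1.24, SPAC18G6.12c at -1.31 and ssn6 at -2.22. The genes wtf15 and its relatives are a multigene family, so its reads may belong in part to copies. The ratios of the 2 ssn6 introns again lay apart, with 44 and 121 reads for the 127-base intron (2.68-fold, 1.88 to 3.87) and an interval of 0.194 to 0.577 for the 219-base intron. Each entered only through the condition where it is high, so this too is a description. The rod1 introns were below 1 in both contrasts, and with all aligned reads as scale the stronger was at 0.990 and the weaker at 0.625 in diauxic shift.

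**Figure D4:**
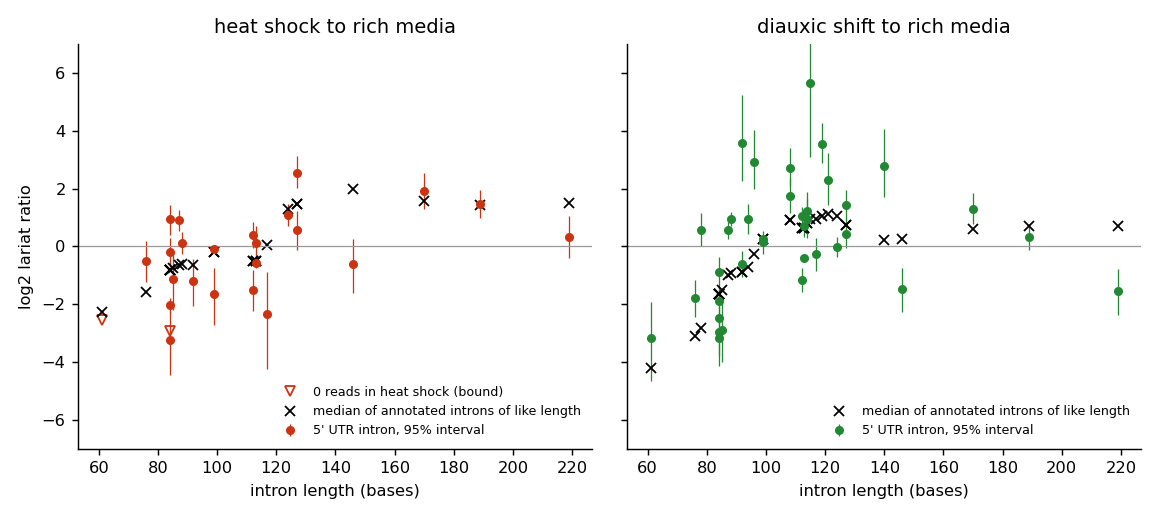
The vertical axis gives the log2 lariat ratio of heat shock (left) and diauxic shift (right) to rich media, scaled by annotated branch reads, against intron length. Filled points are 5' UTR introns with 95% counting intervals (the interval of scd2 runs off the top), open triangles are bounds for introns with 0 reads in heat shock, and crosses are the median of annotated introns of like length. In heat shock the 127-base ssn6 intron at 5.86-fold lies highest, and in diauxic shift scd2 at 49.7-fold.

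The RNA-seq test of growth conditions covered 97 junctions with enough reads, 7 of them 5' UTR introns (cnl2, kha1, efm3, deb1, SPAC4H3.01, yhb1 and prz1). With 1 library per strain and condition, wild type and the dbr1 deletion served as replicates of each condition. Any difference between the strains in their response therefore counts as spread. After heat shock 14.4% of the 97 were called at adjusted p below 0.05 by the edgeR quasi-likelihood test (13.4% higher and 1.03% lower). None of the 7 was called, none had an unadjusted p below 0.05, and DESeq2 called 0 of them. After the diauxic shift 4.12% of the 97 were called, 3 higher (3.09%) and 1 lower (1.03%) (DESeq2 called 0 higher and 1 lower), and 1 of the 7 was among them, prz1.

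The prz1 intron lies far upstream of the gene of the calcineurin-responsive transcription factor Prz1, 804 bases before its start codon and with a 5' splice site before the RefSeq transcript. It had 33 exon-exon reads in wild type and 14 in the dbr1 deletion after the diauxic shift, 0 in both rich media libraries, and 0 and 2 after heat shock. Both diauxic libraries were above all other libraries, the ED668 ones with 1 to 4 reads included. Against a floor of 3 reads over both rich media libraries this is at least 14.1-fold higher. Among the 972h- libraries the junction passed the low-count filter only through the diauxic ones, where it is high, so its adjusted p (0.0360 by edgeR, over all 97 junctions) is given as a description and is no support for the difference. All 8 lariat reads of this intron came from diauxic shift as well, with 0 in rich media and 0 in heat shock. The call was lost with DESeq2 (adjusted p = 0.383), without the low-count filter (0.0711) and without wild type in rich media (0.337), the deletion in rich media (0.371), wild type in diauxic shift (0.233) or the deletion in diauxic shift (0.0777). Whether the transcript became more abundant or was spliced more was not tested.

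The yhb1 intron had 1 and 0 reads in rich media, 10 and 3 with heat shock and 16 and 2 after the diauxic shift, in wild type and deletion. Wild type was higher in both stresses than in rich media, but the fitted differences did not pass (edgeR adjusted p = 0.536 for heat shock and 0.510 for diauxic shift). The kha1 intron had 8 and 5, 13 and 4, and 17 and 12 reads in the same pairs, so heat shock overlapped rich media and both diauxic libraries lay above it, but the diauxic difference did not pass (edgeR adjusted p = 0.621).

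Between the dbr1 deletion and wild type 0% of the 97 junctions were called by edgeR (3 at an unadjusted p below 0.05, and 2 called by DESeq2). The 3 conditions served as the replicates of each strain in this test. Of the 7 introns 1 had an unadjusted p below 0.05, deb1, with a log2 difference of -1.0 (SE 0.47) and an adjusted p of 0.976 by edgeR, and DESeq2 called 0. Per aligned read, 6 of the 7 were lower in the deletion within each condition, but not the same 6. The exception was prz1 in rich media (0 reads in both strains) and in heat shock, and kha1 after the diauxic shift. The median log2 difference was -0.82 for the 7 and -0.02 for all 97, and with library size alone as scale -1.22 and -0.41. The efm3, SPAC4H3.01 and yhb1 junctions passed the low-count filter only through wild type libraries, where they are high. The directions and medians of the 7 are therefore descriptions and no support for a strain difference. All 5' UTR introns together had 13.4 exon-exon reads per 1000000 aligned reads in wild type and 7.50 in the deletion in rich media. The corresponding values were 15.1 and 6.0 for heat shock and 16.4 and 9.49 for diauxic shift. As a share of the exon-exon reads of all unannotated introns they were 6.30% and 4.37%, 5.33% and 3.18%, and 6.21% and 3.86%.

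The upf1 deletion was compared with ED668 over 186 unannotated junctions, of which edgeR called 46.2%, 47 higher (25.3%) and 39 lower (21%). With library size alone as scale the split was 52 and 20, and the median log2 difference of all junctions moved from 0.07 to 0.33. Of 18 tested 5' UTR introns 5 were called (27.8%, a smaller share than among all 186, with no test of that difference), 3 higher and 2 lower. Of the 3 higher ones yhb1 and atg5 entered the test only through the deletion libraries, so the count is no support for a direction. The median log2 difference of the 18 was -0.20. DESeq2 called 44 of the 186, and 2 of the 18, both higher.

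Of the 3 that were higher without upf1, yhb1 had 0 and 0 reads in ED668 and 14 and 13 in the deletion, at least 8.56-fold higher against a floor of 3 reads over both ED668 libraries. It passed the low-count filter only through the deletion libraries, where it is high, so its call (edgeR adjusted p = 0.000746) is a description and no support for the difference. This is the intron that spans the start codon and leaves an out-of-frame ATG next. Without either deletion library it had too few reads to be tested. The SPAC1F12.04c intron, 21 bases before the start codon of an uncharacterized protein, had 30 and 27 reads in ED668 and 86 and 99 in the deletion (log2 difference 1.37, SE 0.25, edgeR adjusted p = 0.000666), and was called in all 7 alternatives. The 54-base intron of the autophagy gene atg5 had 5 and 4 reads against 15 and 25 (log2 1.81, SE 0.53, edgeR adjusted p = 0.0134). It too passed the filter only through the deletion libraries. Its call was lost with DESeq2 (adjusted p = 0.116), without library 1 of ED668 (0.0709) and without the second deletion column (0.328).

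Both introns that were lower without upf1 kept their direction with library size alone as scale. The SPAC630.12 intron had 31 and 31 reads in ED668 and 17 and 15 in the deletion (log2 difference -1.28, SE 0.29, edgeR adjusted p = 0.00275), and DESeq2 gave an adjusted p of 0.0504. The 219-base ssn6 intron had 38 and 40 reads against 35 and 29, a small difference (log2 -0.62, SE 0.24, edgeR adjusted p = 0.0483). Its call was lost in all 7 alternatives, among them each left-out library (0.0950 to 0.170) and library size alone (0.306). Of the 10 junctions with the most exon-exon reads, 3 were called (SPAC1F12.04c higher, SPAC630.12 and ssn6 lower). None of the others passed the test. Their log2 difference was -0.15 (SE 0.19) for cnl2, -0.18 (SE 0.18) for deb1, -0.27 (SE 0.21) for SPAC4H3.01 and -0.00 (SE 0.25) for the 99-base gmh6 intron. It was -0.80 (SE 0.39) for kha1, -0.65 (SE 0.40) for efm3 and -0.23 (SE 0.40) for abo1. The kha1 and efm3 values are thus larger than that of the called ssn6 intron, with a wider SE.

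Gene lists were read for hosts. Of all 5124 protein-coding genes of the reference, 9.21% hosted a 5' UTR intron. None of 142 cytoplasmic ribosomal protein genes, chosen by name, and none of the 31 listed translation factor genes was a host. That list does not hold every such gene. The gene tif308 of translation initiation factor eIF3h, outside the list and chosen after its values were seen, was a host. Its 105-base intron had 87 lariat reads and 10 exon-exon reads. Of 33 stress and signalling genes 5 were hosts: rad3 (72 lariat reads), sck2, a kinase (17), byr2, a kinase of the mating pathway (4), hsf1, the heat shock factor (3), and mpr1, a phosphotransfer protein (1). Of 49 transcription regulators 8 were hosts: php5, a subunit of the CCAAT-binding complex (55), ste11, the regulator of mating (29), mbx2 (10), prz1 and res1 (8 each), mbx1 (2), and cbf11 and toe3 (1 each). At php5, 42 of the 55 reads came from diauxic shift.

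Of 61 genes listed as transporters and cell surface proteins 10 were hosts. The copper transporter gene ctr5 had 63 lariat reads (32, 10 and 21 by condition, in the order above) and vcx1, a proton and calcium exchanger, 43 (16, 1 and 26). The vcx1 intron spans the start codon, and the next ATG lies 42 coding bases further, in frame. The gene sod2 of this list, with 10 reads, is annotated in the reference as a manganese superoxide dismutase. The rest were fio1 (7), str2 (3), ght1 (2), and ctr4, frp1, pfl3 and pma1 (1 each).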

How the data were processed

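Per the labels' protocols, total RNA of the dbr1 deletion gave 12 lariat libraries, in long and short gel fractions, and polyadenylated RNA gave 10 RNA-seq libraries. Lariat counts are deposited as whole reads for each pair of 5' splice site and branch point, and the authors added up the libraries of each condition. Exon-exon counts are deposited per junction and library, with the authors' totals of aligned reads. The fraction headed PSI was computed by the authors, with a denominator that no source used here gives. Other deposited values, namely positions, types and marks of an earlier set, were used as they stand. Positions refer to ASM294v2 per the submitters' processing notes, and all splice site letters were checked on ASM294v3. The aligner was not given in the sources used here. Of the upf1 deletion, the 2 PSI columns carry no separate number and were not used, and the 2 count columns took the mean of both aligned totals.

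Junctions were tested with edgeR 4.0.16 (R 4.3.3, quasi-likelihood, aligned reads with TMM factors, filterByExpr with a minimum count of 10, Benjamini-Hochberg adjustment over all junctions tested), with strain or condition as covariate. For growth and dbr1 the junctions of alternate and unannotated introns were joined, and for upf1 the unannotated ones were used. SE values are the log2 difference over the root of F. DESeq2 1.42.0 served as an alternative. The planned test between lariat libraries could not be run, because the sheets give 1 column per condition, so ratios carry exact conditional binomial intervals. Shares have Wilson 95% intervals, and a running median over 101 annotated introns sorted by length (pseudocount 0.5) gave the values for introns of like length. The test was tried on simulated counts. Other tools were Python 3.11.15, pandas 2.3.3, NumPy 2.4.6, SciPy 1.17.1 and matplotlib 3.10.9.

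The introns, gene lists and naming rule were chosen with earlier results of these data known. The rule names the 10 introns with the most lariat reads, the 10 with the most exon-exon reads, up to 8 with the largest lariat ratios in each direction, those that passed a test and members of the lists. SPNCRNA.821 and the genes named for several sites or for their distance to the start codon were chosen after their values were seen. Alternatives were other scaling, DESeq2, no filter, no covariate, left-out libraries and other read minimums. Gene-level values are not analysed here, so dbr1 and upf1 themselves were not checked.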

Additional observations from a re-analysis of the deposited data

Results flagged for a closer look

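Wild type and the dbr1 deletion changed in opposite directions from rich media in 5 of the compared cases, each with 1 library per strain and condition, and the difference itself was not tested. Values are log2 of reads per aligned read. After heat shock the cnl2 junction was at 0.11 in wild type and -0.98 in the deletion, a difference of 1.10. The kha1 junction was at 0.41 and -0.43, a difference of 0.84. The SPAC4H3.01 junction went the other way, with -0.29 and 0.21, a difference of -0.50. After the diauxic shift SPAC4H3.01 was at 0.45 and -0.08, a difference of 0.52, and the efm3 junction at -0.82 and 0.34, a difference of -1.16.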

How the results depend on the processing

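The summed lariat ratios changed direction with all aligned reads as scale, to 1.54 for heat shock and 5.35 for diauxic shift, and without the leading gmh6 intron they were 0.784 and 0.896. The number of introns past 2-fold was 13 for heat shock and 22 for diauxic shift. It became 23 and 41 with a minimum of 20 reads and 6 and 10 with 100 reads, with other numbers of introns entering. Counts with all aligned reads as scale and against annotated introns of like length were added after the values were seen. So were the ATG shares by subset, which moved from 65.2% to 61.4% at 76 to 100 bases and 60.7% upstream of the start codon. The share of junctions with exon-exon reads became 9.87% with at least 5 reads. RNA-seq calls with DESeq2 were 44 for upf1, 1 for diauxic shift and 2 for dbr1, and without the low-count filter 9 for heat shock and 0 for diauxic shift (27 at an unadjusted p below 0.05). With a library left out, calls ran from 4 to 20 for heat shock, 0 to 3 for diauxic shift, 0 to 3 for dbr1 and 60 to 80 for upf1. A lone library left in a group is assumed there to vary like the others. No paired analysis was possible because the deletion columns of the unannotated sheet carry no replicate number. The second source of exon-exon counts gave no value, since that sheet holds none. With 39.7% of the introns at 1 lariat read, most members are too shallow for any comparison between conditions.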

Other observations

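The 55-base intron of SPAC11D3.08c, chosen after its values were seen, had most of its reads in the other strain background. Of its 20 exon-exon reads, 18 came from the 6 libraries of 972h- and 2 from the 4 libraries of the ED668 background. A 194-base intron of this gene with the same branch point had 3 exon-exon reads, all in the second upf1 deletion column.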
